A study of Mus musculus with 4 samples.

Results

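The 45 genes described here encode the proteins that copy DNA and supply its building blocks: the origin recognition and loading factors, the MCM helicase and its activators, the sliding clamp and clamp loader, the replicative polymerases, the single-strand and Okazaki fragment proteins, 4 enzymes of nucleotide synthesis and 3 E2F factors. They were chosen by gene name, with earlier results of these data known, from the 30138 entries of the deposited read table. All 45 have 1 row there. RNA came from primary mouse hepatocytes, liver cells placed in culture, taken through a stepwise protocol toward insulin-producing cells to compare mRNA and long noncoding RNA along it, and each of the 4 stages was sequenced as 1 library. Cells of S0 were kept without serum but with knockout serum, bFGF and EGF, growth factors given at 20 ng/ml each. Stage S1 followed 48 h of 5-azacytidine (5-AZA), an inhibitor of DNA methylation that is incorporated into nucleic acids, at a dose labelled as 5 mM, and then 24 h of the histone deacetylase inhibitor trichostatin A (TSA) at 100 nM. For S2 the cells then had ITS (insulin, transferrin and selenium) together with retinoic acid (RA), whose dose is labelled as 2 mM, over 7 days. For S3, nicotinamide (10 mM) was given over 7 days while bFGF and EGF were left out. Whether bFGF and EGF were present in S1 and S2 is not given in the labels. The steps were given in sequence, so cells of S2 and S3 carry the earlier treatments. Strain, age and sex of the mice are not given in the labels.

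Chromosomes are copied once per S phase. ORC with Cdc6 and Cdt1 loads the MCM2-7 ring at origins in G1, and the kinase Cdc7-Dbf4, Mcm10, Cdc45 and the GINS complex turn it into the moving helicase. Primase and polymerase alpha start each strand, the RFC clamp loader places the PCNA clamp, and polymerases delta and epsilon extend the strands while RPA covers single-stranded DNA. E2F factors bind the promoters of many of these genes around the G1/S transition, E2F1 and E2F2 as activators and E2F8 as a repressor. Hepatocytes of the resting adult liver are mostly quiescent and enter S phase on regeneration or growth factor stimulation.

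Reads in genes ranged from 22944047 in S2 to 27602967 in S0, so a gene with 0 reads would lie below 0.103 to 0.137 CPM, the unit of library-scaled read counts used here (with TMM factors). Every one of the 45 genes reached 1 CPM in at least 1 library, as did 15222 genes in all. Folds are ratios of CPM, and each fold is followed by its 95% Clopper-Pearson interval, which covers counting error only. A gene is counted as higher or lower where that whole interval lies beyond 2-fold. With 1 library per stage no test between stages can be made, and a difference between stages cannot be told apart from a difference between cultures or libraries. Markers of several cell types were present. The summed level of 18 macrophage markers was 15104, 3545, 763 and 747 CPM in S0 to S3, that of 14 hepatocyte markers 3761, 4407, 12911 and 6770.3 CPM, and that of 12 fibroblast and stellate cell markers 7822, 2053, 1893 and 3593 CPM. Of the hepatocyte markers, Tat had 0 reads at all 4 stages, Cyp2e1 had 1, 1, 1 and 2 reads, and Alb, the albumin gene, was at 234, 1724, 7171 and 3569 CPM. Apoc3 had 0 reads in S0. Markers of other cell types thus stood beside those of the labelled one, and in such RNA fewer cells of a type and less RNA per cell cannot be told apart. Sums of 8 endothelial markers (56.2, 41.0, 91.8 and 88.9 CPM) and 6 lymphocyte markers (at most 0.482 CPM) were low, while 7 biliary (1692, 1676, 719 and 880.4 CPM) and 7 mesothelial markers (2667, 4714, 4577 and 3240.0 CPM) were well above both.

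Together the 45 genes held 0.248, 0.109, 0.0766 and 0.143% of all reads in genes in S0 to S3. In CPM, their sum in S1 was 39.1% of that in S0, in S2 31.2% and in S3 56.3%. The order was shared by most of them: 38 were highest in S0, 39 were lowest in S2, and 35 had S1 below S0, S2 below S1, and S3 above S2 but under S0. In S1 over S0, 32 of the 45 were lower and 0 higher, where 13.1% of all 15222 genes were lower and 12.6% higher. Their median log2 ratio was -1.45 (2.73-fold lower), against -0.03 for all genes. In S2 over S1, 5 were lower and 0 higher (10.1% and 6.71% of all genes), with a median log2 ratio of -0.58, against 0.01 for all genes, and the count of 5 is close to the background share. In S3 over S2, 15 were higher and 0 lower, where 3.69% of all genes were higher and 1.14% lower, with a median of 0.93, against 0.01. In S3 over S0, 17 were lower and 0 higher (10.5% and 9.2% of all genes), with a median of -0.98, against 0.05. In S2 over S0, which spans both earlier steps, 34 were lower and 0 higher (11.5% and 9.05% of all genes), with a median of -2.22, against 0.05. Comparisons that name the same stage share its only library and are not independent of each other.

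**Figure D1:**
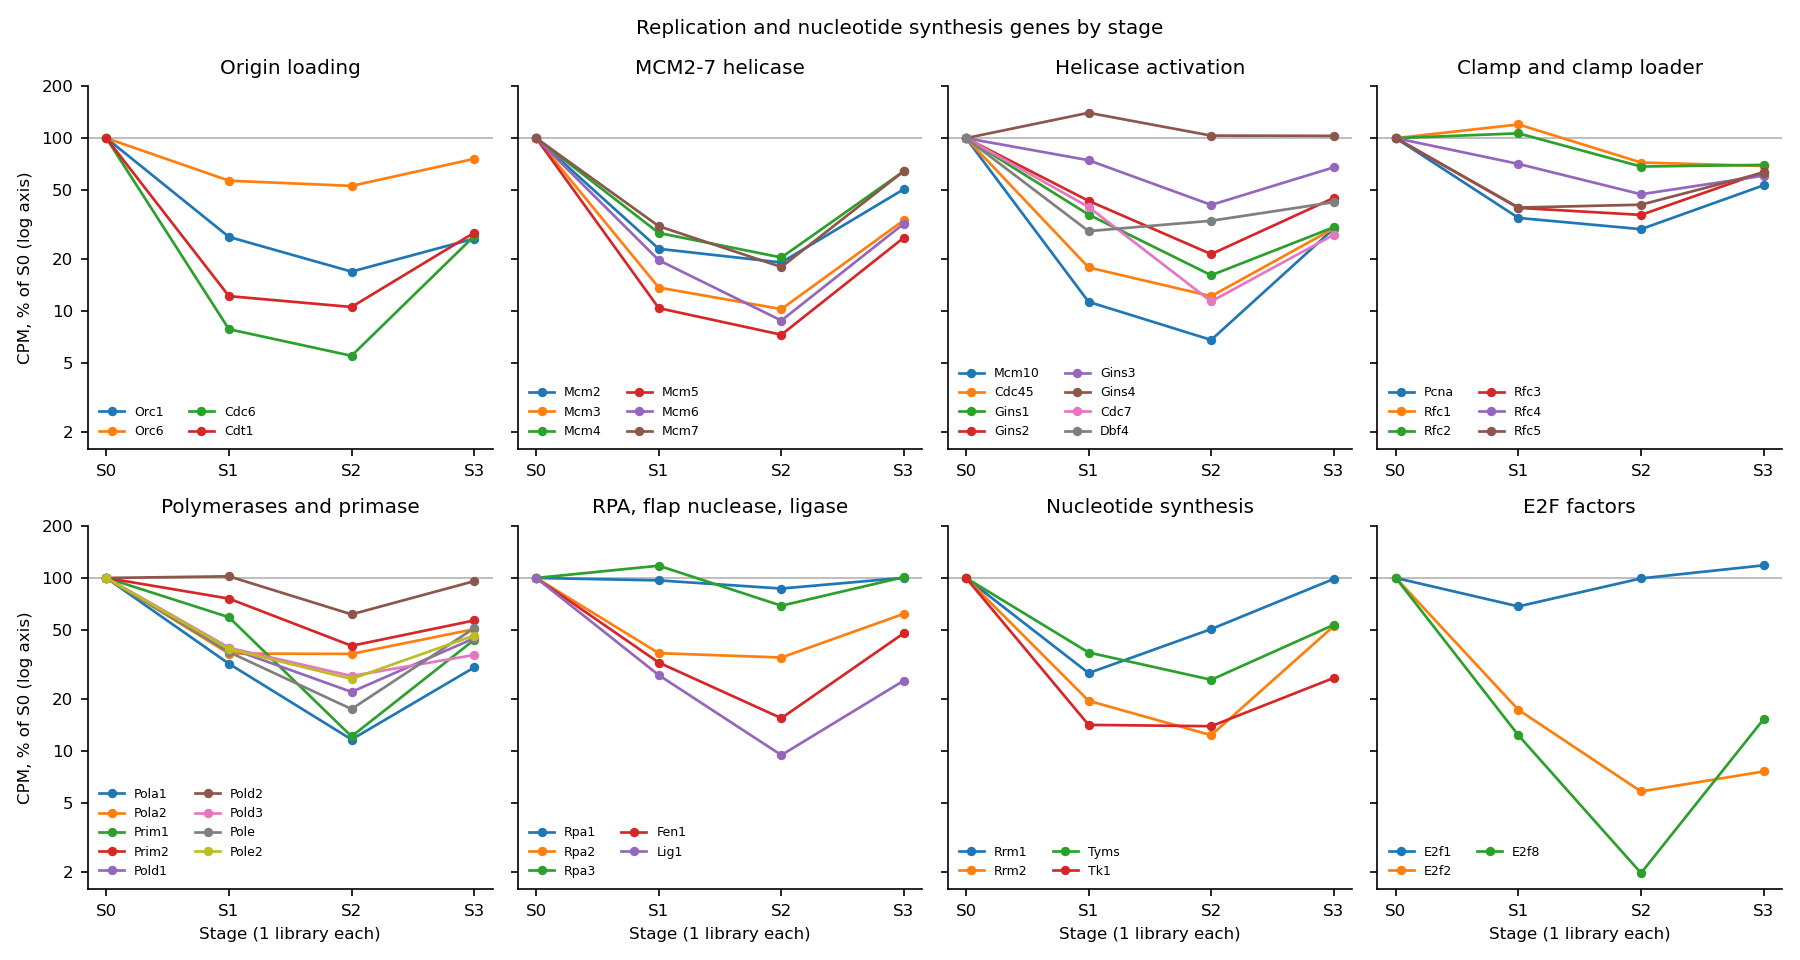
CPM of each of the 45 genes in S0 to S3 as a percentage of its S0 level, on a log axis, in 8 panels by role, 1 library per stage and no error bars. Most lines dip to their lowest point in S2 and climb in S3 without reaching 100%, while Gins4, Rfc1, Rfc2, Pold2, Rpa1, Rpa3 and E2f1 stay between 61.7% and 140.1%.

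Beside these differences, 14 of the 18 macrophage markers were lower and 2 higher in S1 over S0, 14 were lower in S2 over S1, and 0 were higher or lower in S3 over S2. The macrophage markers Clec4f and Timd4 had 1 read or 0 in S2 and in S3, and no macrophage marker was at 0 in S0 or S1. Of the 12 fibroblast and stellate markers, 5 were lower and 1 higher in S1 over S0, 3 higher and 4 lower in S2 over S1, and 7 higher and 0 lower in S3 over S2, and none had 0 reads at any stage. Of the 11 hepatocyte markers tested, 7 were higher and 2 lower in S1 over S0, 6 higher and 1 lower in S2 over S1, and 0 higher and 7 lower in S3 over S2. In S1 over S0 the endothelial markers had 1 higher and 1 lower of 7 tested, the biliary markers 2 higher and 1 lower of 7, and the mesothelial markers 0 of 7 either way. In S3 over S2 the endothelial markers had 0 higher and 1 lower, the biliary markers 1 higher and 0 lower, and the mesothelial markers 3 higher and 1 lower, and no lymphocyte marker reached 1 CPM. Among all genes tested, 12.6% were higher and 13.1% lower in S1 over S0, and 6.71% higher and 10.1% lower in S2 over S1. In S3 over S2 the shares were 3.69% higher and 1.14% lower. The part of these cell types in the levels of the replication genes was not tested.

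E2F factors bind the promoters of many of the 45 genes, so these promoters were searched for the E2F consensus. A high share of matches would follow from that choice of genes, whatever their levels in these libraries. Windows of 250 bases before to 50 bases after the annotated start were taken from RefSeq (GRCm38.p6), which held 38 of the 45 genes. The strings TTTCGCGC, TTTGGCGC, TTTCCCGC and TTTGCCGC were searched on both strands. At least 1 of them occurred in the windows of 15 of the 38 genes (39.5%), against 497 of 11019 genes tested here that have a window (4.51%) and 704 of 27025 genes of the whole promoter table (2.61%). CCAAT, another common promoter string, occurred for 23 of the 38 genes (60.5%), against 42.6% of the genes tested here. The cell cycle strings TTTGAA and TTCGAA, searched on both strands too, occurred for 11 of 38 (28.9%), against 16.2%. Of the 15 genes with an E2F string, 14 were lower in S1 over S0 (median log2 ratio -1.86) and 8 higher in S3 over S2 (median 1.38). Of the 23 without one in the window, 15 were lower in S1 over S0 (median -1.44) and 5 higher in S3 over S2 (median 0.84). In S2 over S1 the 2 sets were closer, with 2 of the 15 and 3 of the 23 lower (medians -0.66 and -0.52). Of the 7 genes without a window, 3 were lower in S1 over S0 (median -1.20) and 2 higher in S3 over S2 (median 0.92). Among all genes tested, 13.1% were lower in S1 over S0, 10.1% lower in S2 over S1 and 3.69% higher in S3 over S2. These shares and medians were not tested, and a match is a run of letters, not a shown binding site. The 1 gene with a string that was not counted as lower in S1 was the GINS subunit Gins3.

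The stretches below give the 170 bases before the start, 5′ to 3′ on the gene's own strand, with the E2F strings in capitals. The first 5 are shown because these loading and helicase genes carry a string and were lower in S1. Rfc3 is shown as the clamp loader gene with a string, and Rfc1 and Rpa1 because they had none and were not lower. These examples do not represent all genes with a window. Of the 23 genes without a string, 15 were lower in S1 over S0, Mcm10 and Tk1 among them. Gins3, not shown, carries a string and was not counted as lower. In GRCm38.p6 they lie at chr11:98907981-98908150 (plus strand) for Cdc6, chr4:108579284-108579453 (plus strand) for Orc1, chr8:75109339-75109508 (plus strand) for Mcm5, chr1:128359706-128359875 (minus strand) for Mcm6 and chr5:138171884-138172053 (minus strand) for Mcm7. Those of the other 3 lie at chr5:151651209-151651378 (minus strand) for Rfc3, chr5:65335640-65335809 (minus strand) for Rfc1 and chr11:75348384-75348553 (minus strand) for Rpa1. In Mcm5 and in Mcm6 a string on the plus strand overlaps one read on the minus strand, so their capitals form 1 longer run, and Mcm6 has a further string nearer the start. Strings after the start are not shown, at bases 17 to 24 in Mcm7 and 1 to 8 in Rfc3. Another start of Mcm7 has a window without an E2F string. In Cdt1, E2f2, Lig1, Mcm3, Pold1, Pold3 and Pole2 the strings found lie only after the start.
Cdc6: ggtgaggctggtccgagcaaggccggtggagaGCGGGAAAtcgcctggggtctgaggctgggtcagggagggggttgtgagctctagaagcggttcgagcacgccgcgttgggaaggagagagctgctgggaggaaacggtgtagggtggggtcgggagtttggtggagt
Orc1: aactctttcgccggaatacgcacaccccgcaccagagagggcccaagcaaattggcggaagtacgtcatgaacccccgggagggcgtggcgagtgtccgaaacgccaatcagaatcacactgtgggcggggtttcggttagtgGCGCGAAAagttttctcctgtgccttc
Mcm5: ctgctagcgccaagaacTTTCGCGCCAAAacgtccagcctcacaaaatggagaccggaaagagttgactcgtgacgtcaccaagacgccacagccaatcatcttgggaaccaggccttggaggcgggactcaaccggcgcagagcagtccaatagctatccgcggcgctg
Mcm6: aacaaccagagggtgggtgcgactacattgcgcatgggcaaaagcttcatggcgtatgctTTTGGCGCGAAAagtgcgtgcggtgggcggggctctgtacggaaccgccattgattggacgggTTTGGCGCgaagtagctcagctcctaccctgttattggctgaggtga
Mcm7: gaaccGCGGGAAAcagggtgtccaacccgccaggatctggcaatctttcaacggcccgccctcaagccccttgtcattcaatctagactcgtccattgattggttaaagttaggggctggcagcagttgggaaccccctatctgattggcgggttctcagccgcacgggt
Rfc3: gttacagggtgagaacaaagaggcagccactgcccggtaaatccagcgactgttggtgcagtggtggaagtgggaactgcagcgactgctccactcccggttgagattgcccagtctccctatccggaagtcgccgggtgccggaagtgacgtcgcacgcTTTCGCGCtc
Rfc1: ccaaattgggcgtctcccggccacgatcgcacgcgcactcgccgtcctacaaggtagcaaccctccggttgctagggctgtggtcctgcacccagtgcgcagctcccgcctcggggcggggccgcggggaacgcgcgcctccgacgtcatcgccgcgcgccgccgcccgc
Rpa1: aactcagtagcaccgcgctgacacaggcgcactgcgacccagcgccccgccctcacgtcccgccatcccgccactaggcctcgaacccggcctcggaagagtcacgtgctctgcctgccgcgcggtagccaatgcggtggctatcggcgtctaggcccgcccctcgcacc

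The summed CPM of the 4 origin loading genes in S1, S2 and S3 was 23.5, 20.2 and 39.2% of that in S0. The ATPase gene Cdc6 (ENSMUSG00000017499, chromosome 11), whose protein loads the helicase together with ORC, stood at 28.0, 2.20, 1.55 and 7.60 CPM in S0 to S3. It was the lowest of all 45 genes in S1 relative to S0, 12.7-fold lower (9.82 to 16.6), and 4.91-fold higher (3.39 to 7.31) in S3 than in S2. Cdt1 (ENSMUSG00000006585, chromosome 8), which brings MCM to ORC and is degraded once S phase starts, stood at 55.4, 6.78, 5.87 and 15.8 CPM. The pattern of Cdt1 was like that of Cdc6, 8.17-fold lower (7.04 to 9.53) in S1 than in S0 and 2.68-fold higher (2.19 to 3.30) in S3 than in S2. Both were still lower in S3 than in S0, 3.68-fold (3.12 to 4.36) for Cdc6 and 3.52-fold (3.14 to 3.96) for Cdt1. Orc1, the largest ORC subunit, stood at 14.0, 3.75, 2.37 and 3.67 CPM and was 3.72-fold lower (3.00 to 4.65) in S1 than in S0, and in S3 it was 1.55-fold higher (1.09 to 2.23) than in S2, which did not pass the rule. Orc6, the smallest ORC subunit, stood at 30.2, 17.2, 16.0 and 23.0 CPM and passed the rule in none of the 5 comparisons (1.76-fold lower, 1.57 to 1.97 in S1 than in S0). Orc2, Orc3, Orc4 and Orc5, the remaining subunits, were not among the 45 genes. They passed in none of the 5 comparisons either, and in S1 over S0 their log2 ratios were 0.52, 0.28, 0.14 and 0.20. Within ORC, Orc1 was thus the 1 subunit counted as lower in S1.

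All 6 subunits of the MCM2-7 ring, the motor of the replicative helicase, were lower in S1 than in S0 and all 6 were higher in S3 than in S2. Their summed CPM in S1, S2 and S3 was 20.6, 13.3 and 43.8% of that in S0. Mcm5 (ENSMUSG00000005410, chromosome 8) stood at 122, 12.8, 8.97 and 32.7 CPM in S0 to S3, 9.58-fold lower (8.61 to 10.7) in S1 than in S0. Mcm3, at 129, 17.7, 13.3 and 43.4 CPM, was 7.29-fold lower (6.64 to 8.02), and Mcm6, at 163, 32.1, 14.4 and 52.3 CPM, was 5.07-fold lower (4.72 to 5.45). Mcm6 went on to be 2.23-fold lower (1.96 to 2.54) in S2 than in S1, where the interval reaches just under 2-fold, so the rule was not passed. The smaller differences in S1 over S0 were those of Mcm2 at 89.0, 20.4, 17.0 and 45.2 CPM (4.36-fold lower, 3.98 to 4.77), Mcm4 at 108, 30.7, 22.2 and 69.9 CPM (3.53-fold lower, 3.27 to 3.81) and Mcm7 at 119, 36.8, 21.4 and 76.7 CPM (3.22-fold lower, 3.01 to 3.46). In S3 over S2 the 6 subunits lay close together, at 2.65-fold to 3.64-fold higher. Mcm2, Mcm4 and Mcm7 did not pass the rule in S3 over S0, while Mcm3, Mcm5 and Mcm6 were lower, by 2.98-fold (2.77 to 3.20), 3.75-fold (3.46 to 4.06) and 3.11-fold (2.92 to 3.32).

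The subunits of one ring therefore did not keep the same ratios to each other. On the deposited RPKM scale, read counts divided by gene length and library size, levels can be set side by side between genes as far as the authors' gene lengths hold, and these lengths are not stated. On it the highest of the 6 was 1.57, 3.33, 2.76 and 2.71 times the lowest in S0 to S3. Mcm7 was the highest subunit at all 4 stages, and Mcm2 was the lowest in S0 and Mcm5 in S1, S2 and S3. The RPKM ratio of Mcm5 to Mcm7 was 0.893, 0.300, 0.363 and 0.369 in S0 to S3, with counting intervals of 0.850 to 0.938 in S0, 0.266 to 0.338 in S1 and 0.338 to 0.401 in S3. The ratio in S1 and later thus lay outside the interval of S0. Mcm7 overlaps Ap4m1 and 3 microRNA genes in the RefSeq annotation, and whether reads were counted by strand is not given in the sources used here, so part of its reads may belong to neighbours. The length implied by its reads and RPKM was 8.17 kb, above its RefSeq span of 7.53 kb. For Cdt1, Pcna, Fen1, Rrm2 and Rfc5 the implied length also exceeded the span, so RPKM levels between genes are uncertain.

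**Figure D2:**
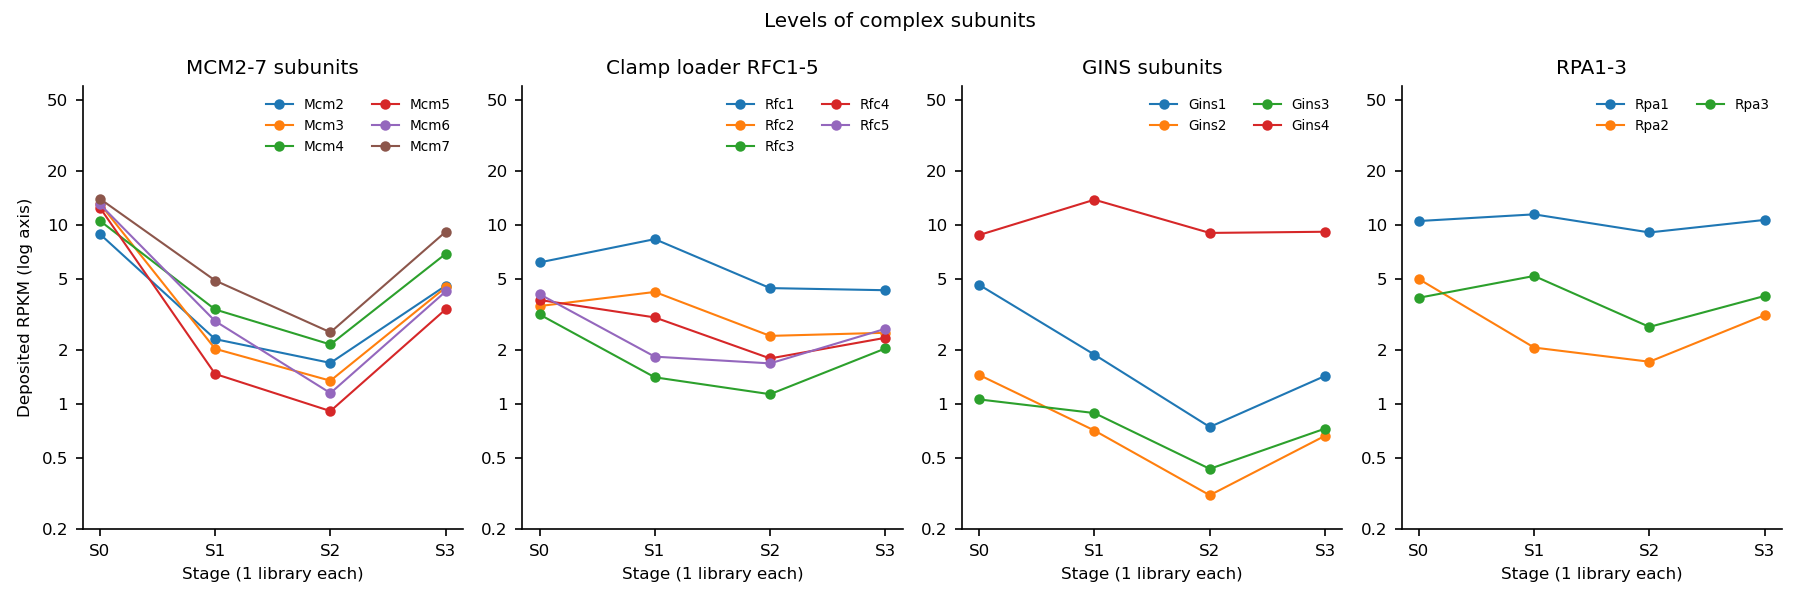
Deposited RPKM of the subunits of MCM2-7, the RFC clamp loader, GINS and RPA in S0 to S3, on a log axis, 1 library per stage and no error bars. The 6 MCM lines run close together in S0 and lie farther apart in S1, and Gins4, Rfc1 and Rpa1 stay above their partners at every stage.

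The genes that turn the loaded ring into a moving helicase were lower in S1 for 5 of 8, with sums of 46.0, 33.5 and 47.5% of S0 in S1, S2 and S3. Mcm10 (ENSMUSG00000026669, chromosome 2), a firing factor, stood at 38.0, 4.31, 2.60 and 11.4 CPM in S0 to S3, 8.82-fold lower (7.32 to 10.7) in S1 than in S0 and 4.39-fold higher (3.29 to 5.95) in S3 than in S2. Cdc45, a core subunit of the active helicase, stood at 29.8, 5.34, 3.64 and 8.96 CPM and was 5.58-fold lower (4.69 to 6.67) in S1 than in S0. The catalytic and the regulatory subunit of the kinase that fires origins differed in time. The catalytic Cdc7 stood at 15.6, 6.23, 1.78 and 4.31 CPM and was lower at both steps, 2.50-fold (2.09 to 2.99) in S1 than in S0 and 3.51-fold (2.47 to 5.10) in S2 than in S1. The regulatory Dbf4, at 59.4, 17.3, 19.8 and 25.4 CPM, was 3.44-fold lower (3.11 to 3.81) in S1 than in S0 and 1.15-fold higher (1.01 to 1.31) in S2 than in S1.

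The 4 GINS subunits, which form 1 complex, were not alike. Gins1 stood at 14.4, 5.20, 2.32 and 4.40 CPM and was 2.76-fold lower (2.28 to 3.36) in S1 than in S0. Gins2, at 16.2, 7.03, 3.46 and 7.30 CPM, was 2.30-fold lower (1.94 to 2.73) in S1, just short of the rule, but passed it in S2 over S0 (4.67-fold lower, 3.65 to 6.05). Gins3, at 7.30, 5.44, 3.01 and 4.95 CPM, passed in no comparison. Gins4 (ENSMUSG00000031546, chromosome 8) stood at 34.3, 48.0, 35.4 and 35.3 CPM, was 1.40-fold higher (1.29 to 1.52) in S1 than in S0, and passed in no comparison. It is the 1 gene of the 45 with its lowest CPM in S0. On the RPKM scale Gins4 was the highest of the 4 subunits at every stage, at 8.81, 13.9, 9.05 and 9.19 in S0 to S3, and the highest subunit was 8.30, 19.5, 29.3 and 13.8 times the lowest. In S2 these were Gins4 and Gins2, at 35.4 and 3.46 CPM. The lengths implied by reads and RPKM were 3.76 kb for Gins4 and 10.8 kb for Gins2. The RefSeq span of Gins2 is only 7.81 kb. The RPKM spread depends on the lengths used, which are not stated, and their share in it was not tested.

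**Figure D3:**
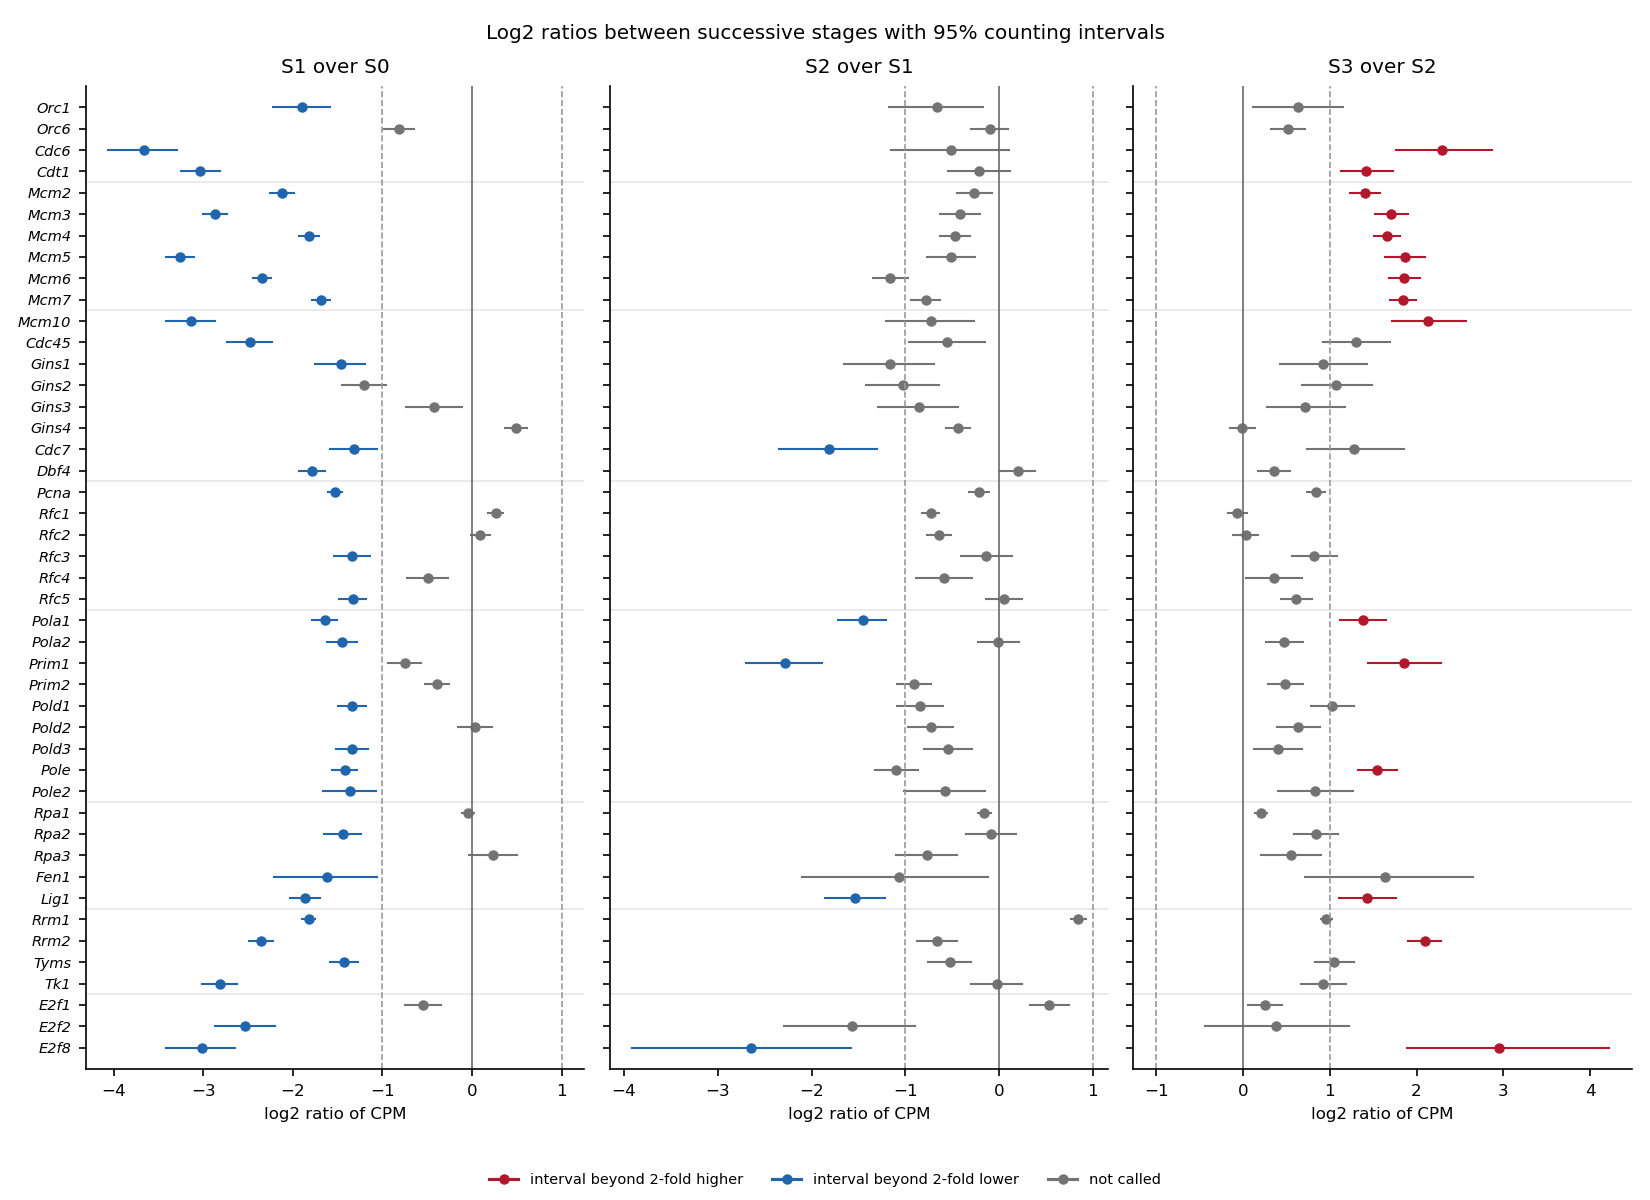
Log2 ratio of CPM of each gene in S1 over S0, S2 over S1 and S3 over S2 (points) with its 95% counting interval (lines), dashed lines at 2-fold, ordered by role from the origin loading genes at the top to the E2F factors at the bottom. In S1 over S0, 32 genes lie wholly beyond 2-fold lower, in S2 over S1 5 do, and in S3 over S2 15 lie wholly beyond 2-fold higher.

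The clamp and clamp loader genes summed to 63.8, 45.9 and 60.8% of S0 in S1, S2 and S3. The sliding clamp gene Pcna (ENSMUSG00000027342, chromosome 2) had the highest RPKM of the 45 genes in S0, S1 and S2, at 42.1, 16.4, 12.5 and 22.7 RPKM in S0 to S3, and stood at 182, 63.0, 54.3 and 97.2 CPM. It was 2.89-fold lower (2.74 to 3.05) in S1 than in S0 and 1.79-fold higher (1.67 to 1.92) in S3 than in S2, the last not past the rule. The 5 subunits of the clamp loader, which opens and closes the clamp, split into 2 patterns in S1. Rfc3 and Rfc5 stood at 24.6, 9.75, 8.88 and 15.7 and at 44.0, 17.5, 18.2 and 27.8 CPM and were lower, by 2.53-fold (2.20 to 2.92) and 2.52-fold (2.27 to 2.80). Rfc4, at 13.9, 9.88, 6.60 and 8.45 CPM, was 1.41-fold lower (1.20 to 1.65) and did not pass, and it overlaps Eif4a2 in the annotation. Rfc2, at 50.3, 53.6, 34.5 and 35.2 CPM, was 1.07-fold higher (0.990 to 1.15), an interval that spans equal levels. The large subunit Rfc1 (ENSMUSG00000029191, chromosome 5), at 83.9, 101, 60.7 and 57.9 CPM, was 1.20-fold higher (1.13 to 1.27) in S1 and had its lowest level in S3. The RPKM ratio of Rfc3 to Rfc1 was 0.512, 0.169, 0.255 and 0.473 in S0 to S3, and the intervals of S3 (0.420 to 0.531) and S0 (0.469 to 0.559) overlapped, while that of S1 (0.149 to 0.191) lay below both. No clamp or loader gene passed the rule in S3 over S2 or in S3 over S0.

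Of the 9 polymerase and primase genes, 6 were lower in S1 than in S0, and 3 were higher in S3 than in S2, with summed CPM of 46.2, 25.1 and 46.9% of S0 in S1, S2 and S3. Pola1 (ENSMUSG00000006678, chromosome X), the catalytic subunit of polymerase alpha, stood at 63.6, 20.3, 7.42 and 19.3 CPM, 3.13-fold lower (2.85 to 3.44) in S1 than in S0, 2.74-fold lower (2.30 to 3.28) in S2 than in S1 and 2.61-fold higher (2.17 to 3.14) in S3 than in S2. Its partner Pola2 stood at 38.4, 14.1, 14.0 and 19.4 CPM and was lower in S1 (2.73-fold, 2.43 to 3.07), and its S2 over S1 interval spans equal levels (1.01-fold lower, 0.865 to 1.17). Prim1, the catalytic primase subunit, followed another course, at 22.5, 13.3, 2.73 and 9.86 CPM. It was 1.69-fold lower (1.48 to 1.92) in S1 than in S0, which did not pass, but 4.88-fold lower (3.71 to 6.52) in S2 than in S1 and 3.61-fold higher (2.71 to 4.88) in S3 than in S2. The large primase subunit Prim2, at 37.9, 28.8, 15.4 and 21.6 CPM, passed only in S2 over S0 (2.46-fold lower, 2.18 to 2.80), and the RPKM ratio of Prim1 to Prim2 was 0.463, 0.362, 0.139 and 0.358 in S0 to S3.

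Polymerase delta extends mainly the lagging strand. Its catalytic gene Pold1, at 41.2, 16.3, 9.06 and 18.5 CPM, and its accessory gene Pold3, at 32.7, 12.9, 8.88 and 11.7 CPM, were lower in S1 by 2.54-fold (2.27 to 2.83) and 2.53-fold (2.24 to 2.86). The accessory subunit gene Pold2, at 16.2, 16.5, 9.97 and 15.5 CPM, was 1.02-fold higher (0.896 to 1.17) in S1 than in S0 and passed in no comparison, and it overlaps Aebp1 in the annotation. Polymerase epsilon extends mainly the leading strand. Pole, its catalytic gene, stood at 55.1, 20.6, 9.65 and 28.3 CPM, 2.68-fold lower (2.43 to 2.95) in S1 than in S0 and 2.93-fold higher (2.50 to 3.43) in S3 than in S2. Pole2, at 12.2, 4.75, 3.19 and 5.68 CPM, was 2.57-fold lower (2.10 to 3.16) in S1.

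Replication protein A coats single-stranded DNA in replication and in repair. With the Okazaki fragment genes its subunits summed to 75.6, 63.5 and 79.8% of S0 in S1, S2 and S3, a sum carried mostly by Rpa1. By gene, 3 of the 5 were lower in S1 than in S0, with a median 2.72-fold lower. The large RPA subunit gene Rpa1 (ENSMUSG00000000751, chromosome 11) stood at 153, 148, 133 and 153 CPM and differed least over the 4 stages among all 45 genes, with the highest library 1.15 times the lowest. Rpa1 overlaps Smyd4 in the annotation, so its count is uncertain. Rpa3 stood at 7.64, 8.99, 5.28 and 7.73 CPM and passed in no comparison. Rpa2, the middle-sized subunit, stood at 25.8, 9.51, 8.97 and 16.1 CPM and was 2.72-fold lower (2.36 to 3.14) in S1 than in S0. Lig1, the ligase that joins Okazaki fragments, stood at 49.9, 13.7, 4.74 and 12.8 CPM and was lower at both steps, 3.64-fold (3.25 to 4.08) in S1 than in S0 and 2.89-fold (2.33 to 3.63) in S2 than in S1, then 2.70-fold higher (2.15 to 3.40) in S3 than in S2. The flap endonuclease gene Fen1, which trims Okazaki fragments, had 102, 36, 13 and 43 reads in S0 to S3 (3.82, 1.24, 0.592 and 1.84 CPM) and the lowest RPKM of the 45 genes in S0, 0.564. It was 3.08-fold lower (2.09 to 4.64) in S1 than in S0, and since it overlaps Tmem258 in the annotation its count is uncertain.

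Ribonucleotide reductase makes deoxynucleotides, with a large subunit, Rrm1, and an S phase small subunit, Rrm2. Rrm1 (ENSMUSG00000030978, chromosome 7) stood at 272, 76.7, 138 and 268 CPM in S0 to S3 and Rrm2 (ENSMUSG00000020649, chromosome 12) at 103, 20.1, 12.8 and 54.4 CPM. Both were lower in S1 than in S0, Rrm1 by 3.54-fold (3.38 to 3.72) and Rrm2 by 5.12-fold (4.68 to 5.61). From there they parted. In S2 Rrm1 was 1.79-fold higher (1.70 to 1.90) than in S1, while Rrm2 was 1.58-fold lower (1.37 to 1.83), and neither passed the rule. In S3 Rrm2 was 4.27-fold higher (3.75 to 4.87) than in S2 and Rrm1 1.95-fold higher (1.86 to 2.03). Rrm1 thus stood in S3 at 98.7% of its S0 level, 1.01-fold lower (0.979 to 1.05), and Rrm2 at 52.7%. The RPKM ratio of Rrm2 to Rrm1 was 0.692 (0.662 to 0.724) in S0, 0.479 (0.437 to 0.525) in S1, 0.169 (0.149 to 0.191) in S2 and 0.370 (0.348 to 0.393) in S3, and no 2 of these intervals overlap.

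The sum of the 4 nucleotide genes, 25.3, 35.5 and 75.5% of S0 in S1, S2 and S3, follows Rrm1, their most abundant member, and the thymidine enzymes differed from it. Tk1, the salvage kinase of S phase, stood at 62.4, 8.85, 8.70 and 16.5 CPM and was 7.05-fold lower (6.18 to 8.07) in S1 than in S0 and still 3.78-fold lower (3.38 to 4.23) in S3 than in S0. Tyms, which makes thymidylate from deoxyuridylate, stood at 42.1, 15.6, 10.9 and 22.6 CPM, 2.69-fold lower (2.41 to 3.01) in S1 than in S0, and did not pass in S3 over S0 (1.87-fold lower, 1.68 to 2.07).

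Of the 3 E2F genes, the activator gene E2f1 (ENSMUSG00000027490, chromosome 2) stood at 18.0, 12.4, 17.9 and 21.3 CPM in S0 to S3 and passed the rule in no comparison. It was 1.46-fold lower (1.27 to 1.68) in S1 than in S0 and 1.18-fold higher (1.04 to 1.34) in S3 than in S0, and it overlaps Necab3 in the annotation. The other activator gene, E2f2 (ENSMUSG00000018983, chromosome 4), had 478, 90, 23 and 32 reads and stood at 17.9, 3.10, 1.05 and 1.37 CPM. E2f2 was 5.77-fold lower (4.60 to 7.31) in S1 than in S0 and 13.1-fold lower (9.15 to 19.4) in S3 than in S0, the farthest from its S0 level of all 45 genes in S3. The repressor gene E2f8 (ENSMUSG00000046179, chromosome 7) had 492, 66, 8 and 66 reads and stood at 18.4, 2.27, 0.364 and 2.82 CPM. Its difference of 50.6-fold lower (25.5 to 118) in S2 than in S0 was the farthest of any of the 45 genes in any of the 5 comparisons, and in S3 it was 7.73-fold higher (3.70 to 18.7) than in S2. The RPKM ratio of E2f8 to E2f1 was 0.762, 0.137, 0.0152 and 0.0985 in S0 to S3.

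The 10 genes that passed in no comparison were Orc6, Gins3, Gins4, Rfc1, Rfc2, Rfc4, Pold2, Rpa1, Rpa3 and E2f1, and they include members of 6 of the 8 role groups. The MCM subunits and the nucleotide enzymes hold none of them. At the other end, 4 genes were lower at both of the first 2 steps, Cdc7, Pola1, Lig1 and E2f8. Of the 32 genes lower in S1, 14 were higher in S3 than in S2, and Prim1 was the 1 gene higher in S3 that had not been counted as lower in S1. Of all 15222 genes, 13.1% were lower in S1 over S0, 10.1% lower in S2 over S1 and 3.69% higher in S3 over S2. How many of all genes had 2 of these calls together was not counted.

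S1 over S0 and S3 over S2 share no library, so their ratios can be set against each other gene by gene. Across the 45 genes the log2 ratios of the 2 steps had a Pearson correlation of -0.73 and a Spearman correlation of -0.70, so genes farther down in S1 tended to be farther up in S3. Across 15013 genes with both ratios the values were -0.09 and -0.12. These are correlations across genes of the same 4 libraries, genes are not independent replicates, and no test was made. Genes that stood off this line, chosen after their values were seen, were E2f2 (log2 ratio -2.53 in S1 over S0 and 0.38 in S3 over S2) and Dbf4 (-1.78 and 0.36), with Prim1 on the other side (-0.75 and 1.85).

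**Figure D4:**
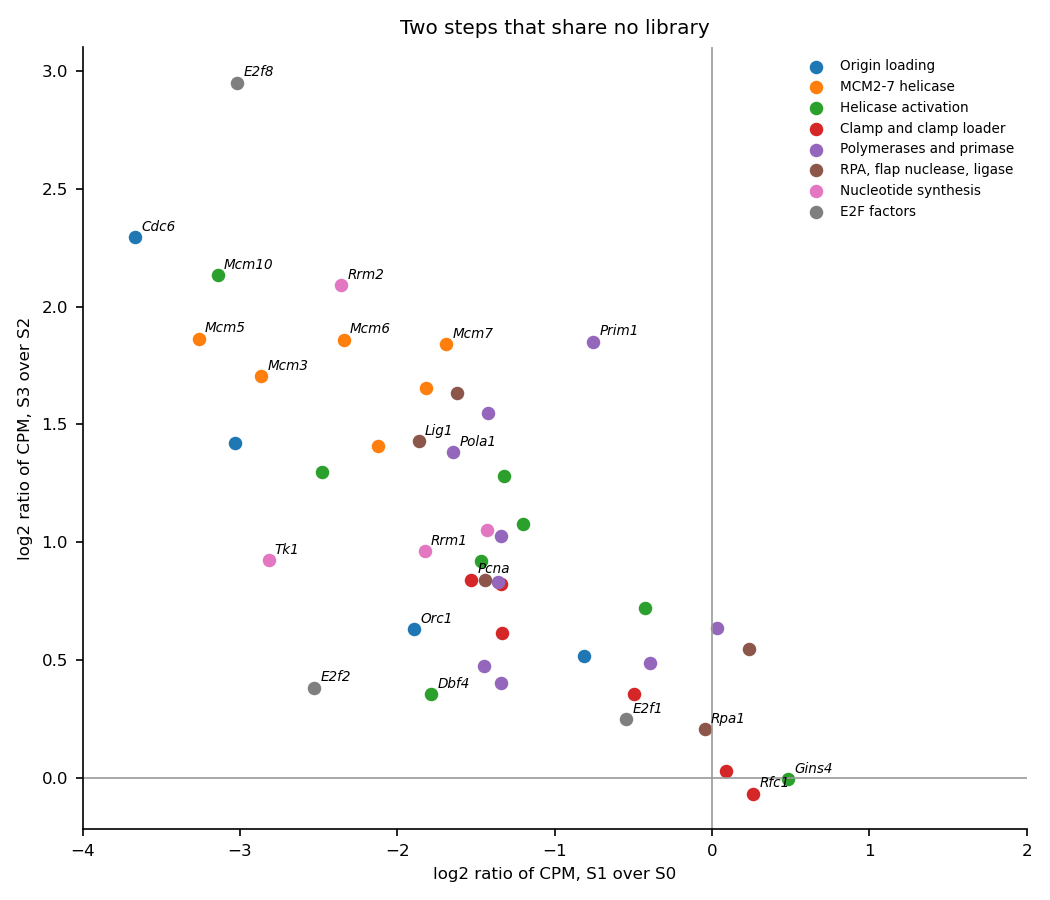
Log2 ratio of CPM in S3 over S2 (vertical) against S1 over S0 (horizontal) for the 45 genes, coloured by role, with some genes named. Cdc6, Mcm10, Mcm5 and E2f8 lie at the upper left and Gins4, Rfc1 and Rpa1 at the lower right, with Pearson's r of -0.73 over the 45 points.

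Other genes of the same processes were taken from 7 lists. Of 28 other fork and licensing genes, 13 were lower and 0 higher in S1 over S0 (median 1.80-fold lower), and 7 were higher and 0 lower in S3 over S2. Clspn, the checkpoint mediator claspin, stood at 56.2, 3.41, 2.96 and 17.9 CPM, 16.5-fold lower (13.4 to 20.4) in S1 than in S0 and 6.06-fold higher (4.66 to 7.99) in S3 than in S2. Dscc1, a subunit of an alternative clamp loader, stood at 3.67, 0.482, 0.182 and 1.07 CPM (7.61-fold lower, 4.33 to 14.4 in S1 than in S0). Of 11 genes for chromatin assembly at the fork, 7 were lower and 0 higher in S1 (median 2.56-fold lower), 2 higher in S3 over S2. Hells, a chromatin remodeller, stood at 67.1, 16.1, 9.47 and 36.5 CPM (4.16-fold lower, 3.76 to 4.62 in S1 than in S0). Asf1b, a histone chaperone, stood at 38.7, 10.2, 3.05 and 7.98 CPM (3.78-fold lower, 3.32 to 4.32), while its paralog Asf1a stood at 18.6, 26.1, 19.2 and 21.0 CPM (1.41-fold higher, 1.26 to 1.58).

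Of the lists of nucleotide supply, those of purine and pyrimidine synthesis and of other deoxynucleotide genes differed less in S1 over S0 than the 45 genes. The one-carbon list did not. Of 18 genes of purine and pyrimidine synthesis, 0 were higher or lower in S1 over S0 (median 1.06-fold lower). Ctps, the CTP synthase gene, had the lowest ratio of them, at 158, 79.8, 155 and 206 CPM in S0 to S3 (1.97-fold lower, 1.87 to 2.08 in S1 than in S0), and Impdh1, of guanine nucleotide synthesis, the highest (1.53-fold higher, 1.44 to 1.63). Of 13 other deoxynucleotide genes, 2 were lower and 0 higher in S1 (median 1.15-fold lower). They were Dctd, the deoxycytidylate deaminase gene, at 14.2, 5.51, 5.51 and 11.6 CPM (2.58-fold lower, 2.14 to 3.13), and Samhd1, a dNTP hydrolase gene also known from macrophages, at 92.4, 39.8, 26.4 and 22.1 CPM (2.32-fold lower, 2.16 to 2.49). Of 8 one-carbon genes, which supply one-carbon units to thymidylate and purines, 6 were lower and 0 higher in S1 (median 2.89-fold lower), with Mthfd2 at 52.8, 15.4, 24.1 and 25.6 CPM (3.43-fold lower, 3.09 to 3.83). In S3 over S2, 0 of these 8 were higher and 1 lower. Of 11 translesion and repair polymerase genes, 0 were higher or lower in S1 (median 1.03-fold lower), and Polq, of end joining, was the 1 higher in S3 over S2 (3.88-fold higher, 2.69 to 5.71).

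Among 20 other E2F, RB and G1/S genes, 11 were lower and 1 higher in S1 over S0 (median 2.34-fold lower), and 3 were higher in S3 over S2. The 1 higher in S1 was Rb1, the retinoblastoma protein that holds E2F factors in check, at 44.0, 119, 39.7 and 51.0 CPM (2.70-fold higher, 2.53 to 2.89), and it was 2.99-fold lower (2.78 to 3.23) in S2 than in S1. Its relative Rbl1 stood at 70.7, 21.5, 8.38 and 19.1 CPM (3.30-fold lower, 3.01 to 3.61 in S1 than in S0). Ccna2, the S phase cyclin A2, stood at 119, 10.3, 4.42 and 28.1 CPM (11.6-fold lower, 10.3 to 13.1 in S1 than in S0, 6.37-fold higher, 5.14 to 7.97 in S3 than in S2). E2f7, the second atypical repressor, followed E2f8 in direction at each step, at 15.0, 4.17, 1.14 and 4.40 CPM (3.66-fold lower, 2.37 to 5.88 in S2 than in S1). E2f3, the third activator, stood at 42.1, 15.3, 33.4 and 34.6 CPM (2.75-fold lower, 2.46 to 3.08 in S1 than in S0).

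**Figure D5:**
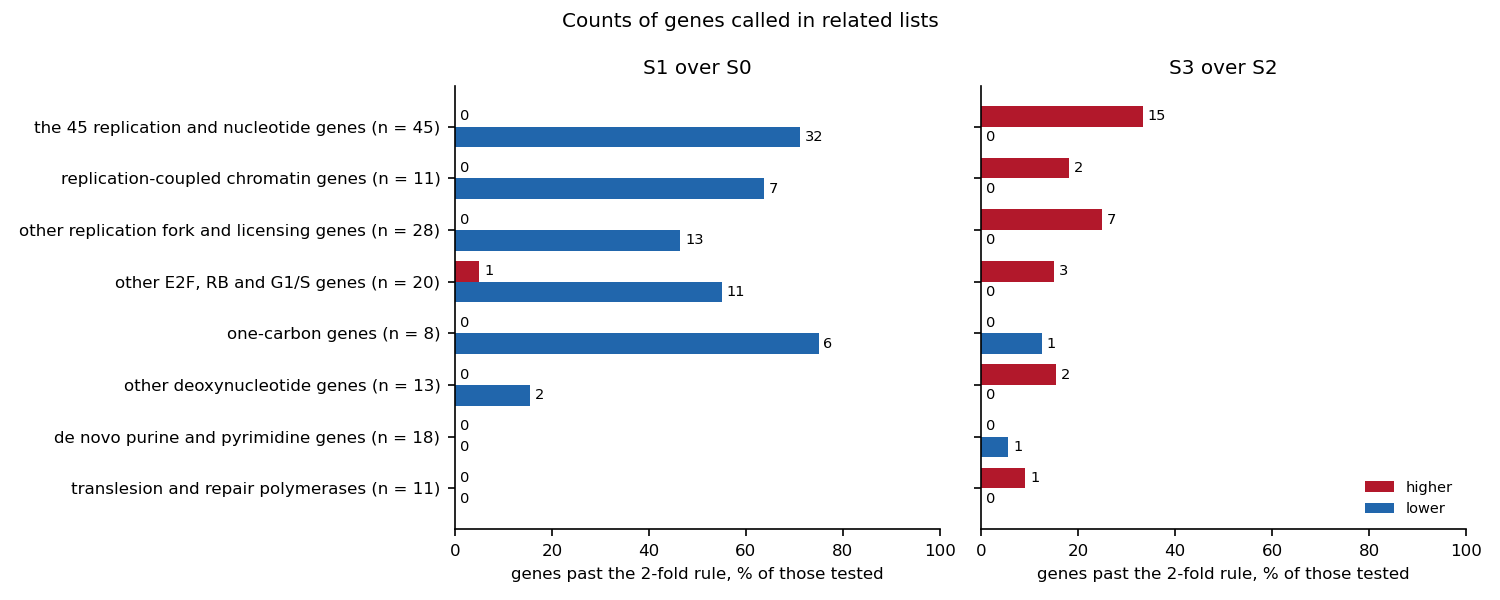
Share of genes past the 2-fold rule, higher (red) and lower (blue), in S1 over S0 and in S3 over S2, for the 45 genes and 7 lists of related genes, with the number of genes beside each bar. In S1 over S0, 32 of the 45 genes and 0 of 18 purine and pyrimidine genes were lower.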

How the data were processed

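Total RNA of 4 culture stages of primary mouse hepatocytes was sequenced, 1 library per stage, with a stranded total RNA kit per the labels' protocols. The build mm9 and the tool bcl2fastq are named per the submitters' processing notes. Not given in the sources used here are the aligner, counter, annotation release and use of strand. The authors deposited read counts per gene and RPKM values per gene, named as such per the file headers, without gene coordinates or lengths. Counts were used for all folds and calls, and the deposited RPKM for levels between genes.

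Counts were scaled to CPM with TMM factors over all 4 libraries (edgeR 4.0.16, R 4.3.3), which were 0.968, 1.09, 0.957 and 0.991 for S0 to S3. Genes reaching 1 CPM in any library were kept. Log2 ratios carry exact 95% Clopper-Pearson intervals on the share of reads, computed with Python 3.11.15 and scipy 1.17.1, and the procedure was tested on simulated data. No replicate exists, so no p-value was computed. PCR copies are not told apart from separate molecules, so intervals and the floor of 3 reads cover counting error only. In the RefSeq annotation (GRCm38.p6) 18 of the 45 genes overlap another gene, and such counts are uncertain. They include Rpa1, Rfc4, Cdc45, Gins2, Lig1 and Tk1, beside Mcm7, Pold2, Fen1 and E2f1. Named within each role were the gene of highest S0 RPKM, those of highest and lowest S1 over S0 ratio and those that differ from their group, and the other genes with fewer values. Of the other lists, genes with the highest or lowest S1 over S0 ratio or with another direction were named, and Orc3, Orc4, Orc5, Rbl1, E2f3, E2f7, Alb and the other cell type markers were chosen after their values were seen. The 45 genes, the 7 pathway lists and the 7 marker lists were chosen with earlier results of these data known. Other scalings, filters and fold limits were tried as alternatives.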

Additional observations from a re-analysis of the deposited data

How the results depend on the processing

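Every median over the 45 genes kept its sign under the other scalings, filters and the RPKM ratios. In S1 over S0 it was -1.28 without TMM factors and -1.28 from the deposited RPKM, against -1.45, since leaving out TMM moved the median of all genes by 0.17 and left the distance between the 45 genes and all genes as it was. That scaling gave 27 lower genes in S1 over S0, against 32, and 8 in S2 over S1, against 5. The fold limit moved the counts most. At 1.5-fold, 14 genes were lower and 1 higher in S2 over S1, 25 higher in S3 over S2 and 28 lower in S3 over S0. At 3-fold, 17 were lower in S1 over S0, 1 lower in S2 over S1, 7 higher in S3 over S2 and 8 lower in S3 over S0. The log2 ratios of single genes stayed within their counting intervals under median-of-ratios factors and under TMM factors of the compared pair in all 225 cases each, and moved beyond them in 32 of 225 without TMM, with no called gene changing sign. No paired analysis was possible because each stage has 1 library, and for the same reason no library could be left out. Depth limits chiefly Fen1, E2f8 and E2f2 in S2, with 13, 8 and 23 reads.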
